A study of Mus musculus with 8 samples.

Results

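Bone morphogenetic protein (BMP) signalling genes and the Id genes were followed through a single comparison, C3H10T1/2 cells given sphingosine 1-phosphate (S1P) against the same cells given vehicle. The set was defined by name, as the rows of the deposited count table carrying the symbols Bmp2, Bmp4, Bmpr1a, Bmpr2, Grem1, Fst, Id1, Id2, Id3 or Smad6. Of these 10 symbols, 9 matched a row among the 18306 genes of the table, and all 9 passed the filter on low counts together with 11844 genes in all. Bmp2 matched no row and was not analysed here. C3H10T1/2 is an established mouse mesenchymal line that can take on bone, cartilage, fat or muscle properties in culture. Every culture was plated in medium with 10% serum, moved to serum-free medium for 24 h and then treated for another 24 h. The 4 libraries numbered 5 to 8 received 5 µM S1P, a bioactive lipid with its own cell-surface receptors. The 4 libraries numbered 1 to 4 received the vehicle, fatty acid-free albumin. The albumin vehicle is recorded at 0.1% for all 8 libraries. No genetic change distinguished the groups, and everything below holds for this line under serum-free conditions at a single dose and time. Whether libraries of 1 treatment were grown as separate cultures is not in the labels, and p-values below reflect the spread among these libraries, which may be technical.

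BMP ligands such as Bmp4 and Bmp2 bind pairs of type I receptors (Bmpr1a among them) and type II receptors (Bmpr2 among them), which phosphorylate the transcription factors Smad1, Smad5 and Smad9. With Smad4 these switch on target genes, of which Id1, Id2 and Id3 are the best known. Id proteins bind basic helix-loop-helix factors and keep them from DNA. The target Smad6 feeds back as an inhibitor of the receptors, and the secreted proteins Grem1 (gremlin) and Fst (follistatin) bind ligands outside the cell. In C3H10T1/2 cells BMPs are known as inducers of bone, cartilage and fat differentiation.

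The 8 libraries each held 13750303 to 13761544 counts. These totals are nearly equal, and whether the authors reduced the libraries to a common size is not stated. Values are given as CPM, counts relative to the library's size after scaling with composition factors. A gene with 0 counts could have had up to 3 counts by counting error, which corresponds to 0.213 to 0.223 CPM. All 12 mesenchymal markers were detected, at a summed 19615 to 25665 CPM in vehicle and 16521 to 21080 CPM in S1P libraries. Of the 6 endothelial markers 5 stayed under 1 CPM in every library, and Tek, a receptor kinase of endothelium, held 17.0 to 76.6 CPM. Vehicle replicate 4 stood apart before any gene was considered. Its log2 CPM lay more than 2-fold from the mean of the other vehicle libraries for 15.7% of genes, against 1.16% to 6.63% for each of the other 7 libraries within its own group. That deviation followed the GC content of the transcript across genes (r = 0.75 over genes, which share this library and are not replicates). Results that rest on this library are therefore given with and without it.

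None of the 9 members passed the test of S1P against vehicle (edgeR quasi-likelihood test, Benjamini-Hochberg adjusted over all genes, threshold 0.05), where 8.50% of all tested genes did (5.60% as higher and 2.90% as lower after S1P). None passed at an unadjusted p under 0.05 either, where 24.9% of all tested genes did, and DESeq2 and limma-voom called 0 members as well. The groups overlapped for all 9 members. Over all tested genes, 19.1% had groups that did not overlap. The members' median log2 fold change was -0.14, beside -0.04 over all tested genes. Without vehicle replicate 4 these medians were 0.18 and 0.0038, so in this edgeR fit the sign of the members' median turned without that library. Absence of a call does not show equal levels, so the 95% intervals matter. They exclude a change of 2-fold or more in either direction for 7 members and of 1.5-fold or more for 4 of these, Bmp4, Bmpr1a, Bmpr2 and Fst. The intervals of Id3 and Smad6 do not exclude a 2-fold decrease.

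**Figure D1:**
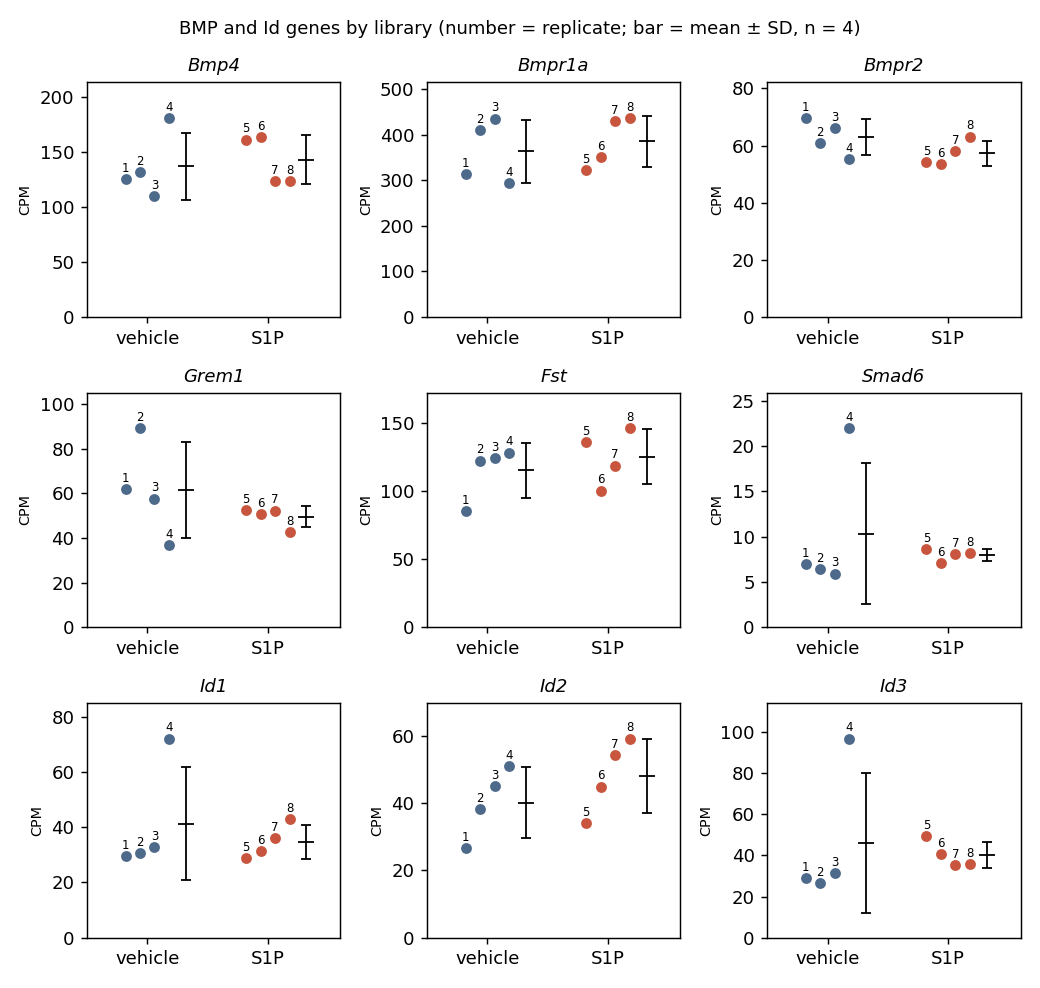
CPM (y axis, from 0) of the 9 members in each library, with vehicle in blue and S1P in red, the replicate number above each point and the group mean ± SD (n = 4) as a bar. Vehicle replicate 4 is far above the other vehicle libraries for Smad6, Id1 and Id3, and the groups overlap in all 9 panels.

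The ligand Bmp4 (chromosome 14, 47002995 to 47010544 in mm9) held 125, 131, 109.7 and 181 CPM in vehicle replicates 1 to 4 and 161, 163, 124 and 123 CPM in S1P replicates 5 to 8. Vehicle replicate 4 was its highest library, and S1P replicates 5 and 6 came next. The group means were 137 ± 30.6 and 143 ± 22.4 CPM (SD, n = 4 each), with a log2 fold change of 0.06 (SE 0.17, 95% interval -0.33 to 0.45, edgeR adjusted p = 0.843). The span of Bmp4 shares 2164 bases with the barely detected gene Gm15222 (mean count of 1.125).

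Both receptors were well expressed. Bmpr1a (chromosome 14, 35223720 to 35316727) held 313, 410.4, 435 and 294 CPM in vehicle and 323, 351, 429.6 and 436 CPM after S1P. Low and high values of Bmpr1a occurred in both groups, and the log2 fold change was 0.08 (SE 0.16, edgeR adjusted p = 0.778). Bmpr2 (chromosome 1, 59821281 to 59927903) held 69.6, 60.8, 65.998 and 55.3 CPM in vehicle and 54.4, 53.5, 58.0 and 63.2 CPM after S1P. It was the steadiest member, with a log2 fold change of -0.14 (SE 0.11, 95% interval -0.39 to 0.11, edgeR adjusted p = 0.474). With GC offsets, an alternative chosen after seeing the data, it was -0.31 (edgeR adjusted p = 0.056).

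Grem1, the gremlin antagonist (chromosome 2, 113586121 to 113599003), ranged widely among vehicle libraries, at 61.9, 89.1, 57.7 and 36.8 CPM, and narrowly after S1P, at 52.6, 50.9, 52.3 and 42.6 CPM. Vehicle replicate 4 was the lowest of all 8 libraries, opposite to its place for Bmp4, and the remaining vehicle libraries were all above every S1P library. The log2 fold change was -0.31 (SE 0.23, edgeR adjusted p = 0.433), and it was -0.49 (SE 0.16, edgeR adjusted p = 0.0688) without vehicle replicate 4. Without vehicle replicate 2, its highest library, it was -0.07 (edgeR adjusted p = 0.838). Per kilobase of exon, the level of Grem1 was 0.110 of the Bmp4 level in vehicle replicate 4, 0.267 to 0.368 of it in the other vehicle libraries and 0.169 to 0.229 of it after S1P. Fst, which binds activins most tightly and BMPs more weakly (chromosome 13, 115242270 to 115249359), held 85.5, 122, 124 and 128 CPM in vehicle and 136, 100.4, 119 and 146 CPM after S1P. Vehicle replicate 1 alone was low, and the log2 fold change was 0.12 (SE 0.16, edgeR adjusted p = 0.666).

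Smad6, the inhibitory SMAD (chromosome 9, 63800683 to 63870066), was the member of lowest abundance in CPM, with 6.96, 6.46, 5.92 and 21.9 CPM in vehicle and 8.66, 7.12, 8.08 and 8.19 CPM after S1P. A single library, vehicle replicate 4, was 3.40-fold above the mean of the other vehicle libraries and above every S1P library. With it the log2 fold change was -0.36 (SE 0.41, edgeR adjusted p = 0.608). Without it the sign turned, to 0.31 (SE 0.14, edgeR adjusted p = 0.161), and all S1P libraries were above the 3 remaining vehicle libraries.

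Id1 (chromosome 2, 152561787 to 152563346) held 29.6, 30.7, 32.6 and 72.0 CPM in vehicle and 28.9, 31.3, 35.9 and 42.8 CPM after S1P. The high vehicle library was again replicate 4, at 2.32 times the mean of the others. The log2 fold change of Id1 was -0.25 (SE 0.29, edgeR adjusted p = 0.622) with it and 0.16 (SE 0.14, edgeR adjusted p = 0.453) without it. Id3 (chromosome 4, 135699212 to 135701870) held 29.1, 26.6, 31.4 and 96.8 CPM in vehicle and 49.2, 40.8, 35.3 and 35.9 CPM after S1P. Vehicle replicate 4 was 3.34-fold above the other vehicle libraries, which in turn were all below the S1P libraries. The log2 fold change of Id3 was -0.19 (SE 0.40, 95% interval -1.08 to 0.71, edgeR adjusted p = 0.792) in all libraries.

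Without vehicle replicate 4, Id3 was 1.39-fold higher after S1P and passed the threshold (log2 fold change 0.47, SE 0.13, edgeR adjusted p = 0.0444). It was the only member to do so, 1 of 9, in a fit that called 15.5% of all tested genes (9.49% as higher and 6.05% as lower), so the share is near that of genes at large. Groups did not overlap for 3 members in this comparison (Grem1, Id3 and Smad6), where 29.0% of all tested genes did not overlap. Id2 (chromosome 12, 25778466 to 25781157) held 26.6, 38.1, 45.0 and 51.1 CPM in vehicle and 34.0, 44.9, 54.2 and 59.2 CPM after S1P. Vehicle replicate 4 was again the highest vehicle library for Id2, by 1.40 times the mean of the others, but was below S1P replicates 7 and 8. The log2 fold change of Id2 was 0.26 (SE 0.23, edgeR adjusted p = 0.506), and 0.08 without vehicle replicate 1, its lowest library.

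**Figure D2:**
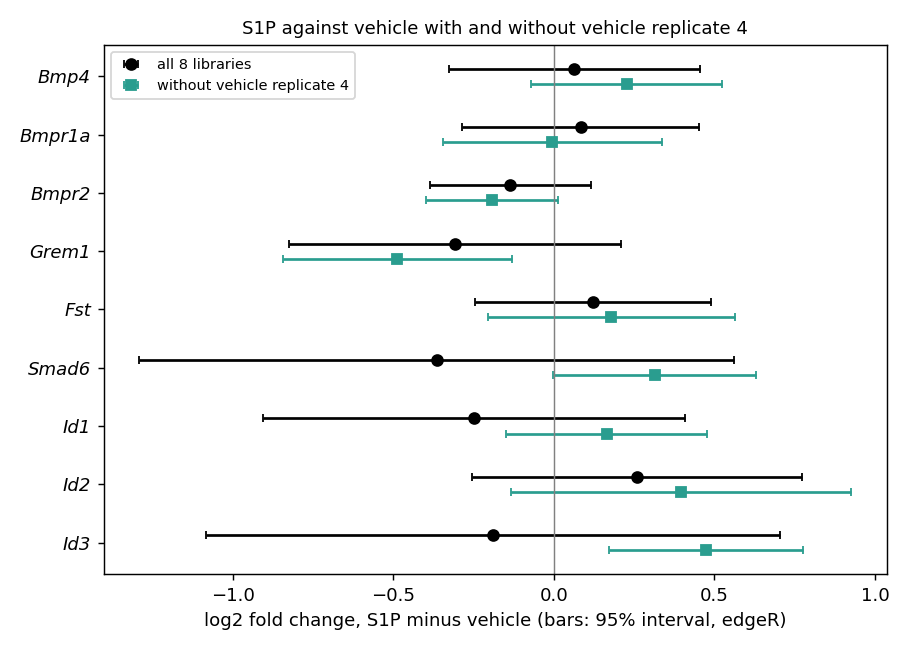
Log2 fold change of S1P minus vehicle (x axis) for each member, as a point with its 95% interval from edgeR, in all 8 libraries (black circles) and without vehicle replicate 4 (green squares). The points of Smad6, Id1 and Id3 cross from below 0 to above 0, and only the intervals of Id3 and Grem1 exclude 0 without that library, of which Id3 alone passes after adjustment.

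The promoters of Id3 and Smad6, the members with the largest excess in vehicle replicate 4, are shown beside that of Id2 to set out which carry SMAD-type motifs. The sequences are from RefSeq (GRCm38.p6, a later build than the mm9 of the counts), 5′ to 3′ on the gene's strand, from 250 bases before the annotated start to 20 after it. Capitals mark matches to GGCGCC (the core of BMP response elements), GTCTAGAC (the palindromic SMAD element) or GTCTG and its reverse CAGAC (the short SMAD site), searched on both strands.
Id3, chr4:136143572-136143841, plus strand: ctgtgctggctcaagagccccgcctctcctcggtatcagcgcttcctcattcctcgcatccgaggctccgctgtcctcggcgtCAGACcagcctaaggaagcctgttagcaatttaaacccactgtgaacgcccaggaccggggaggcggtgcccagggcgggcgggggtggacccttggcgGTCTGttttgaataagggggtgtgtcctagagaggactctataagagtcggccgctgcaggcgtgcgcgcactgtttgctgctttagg
Smad6, chr9:64022040-64022309, minus strand: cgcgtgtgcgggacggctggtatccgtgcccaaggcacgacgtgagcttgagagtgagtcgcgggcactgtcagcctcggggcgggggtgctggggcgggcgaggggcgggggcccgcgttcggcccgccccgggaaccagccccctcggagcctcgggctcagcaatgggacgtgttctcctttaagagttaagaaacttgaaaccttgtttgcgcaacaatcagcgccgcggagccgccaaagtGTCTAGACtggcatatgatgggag
Id2, chr12:25096073-25096342, minus strand: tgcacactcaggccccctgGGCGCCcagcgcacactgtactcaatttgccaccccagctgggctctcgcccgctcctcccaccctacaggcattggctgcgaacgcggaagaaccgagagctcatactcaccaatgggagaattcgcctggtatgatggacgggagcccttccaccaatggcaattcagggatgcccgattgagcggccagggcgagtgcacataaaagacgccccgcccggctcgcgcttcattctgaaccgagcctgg

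Promoters of 7 members were found in that table. The short SMAD site is in 45.4% of the 32851 promoters of this length and in 2 of the 7 (Grem1 and Id3). The palindrome is rare, in 0.183% of promoters, and of the 7 only Smad6 holds it. GGCGCC is in 10.4% of promoters and in 4 of the 7, Bmpr1a, Bmpr2, Grem1 and Id2. The motifs were chosen with the expression values known, and a match describes the letters only.

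In the gap test for a single library apart from the other 3 of its group, vehicle replicate 4 was alone on the high side for Id1, Id3 and Smad6, 3 of 9 members, and for 10.3% of all tested genes. It was alone on the low side for 0 members and for 2.90% of all tested genes. The excess of Id1, Id3 and Smad6 in vehicle replicate 4 was set beside the GC content of the transcripts, because that library deviated with GC throughout. GC content was 54.7% for Id1, 55.6% for Id3 and 60.8% for Smad6, and 41.0% to 52.5% for the remaining members. On the log2 scale, vehicle replicate 4 exceeded the mean of the other vehicle libraries by 1.75 for Smad6, where a curve fitted to all tested genes gave 1.495 at that GC content, leaving 0.25. For Id3 the excess was 1.74, the curve gave 0.71 and 1.02 remained. For Id1 it was 1.21, with 0.58 from the curve and 0.63 remaining. Id2, a transcript of 45.1% GC, exceeded by 0.51 where the curve gave -0.35, leaving 0.86. Most of the Smad6 value was thus also found in other genes of like GC content. Fst remained 0.63 above the curve, as far as Id1, and Bmp4, Bmpr2 and Bmpr1a remained 0.29, 0.28 and 0.14 above it, while Grem1 lay below it. Altogether 8 of 9 members were above the curve in that library, where 48.5% of all tested genes were. After subtracting the curve, 1 of 9 members (Id3) remained more than 2-fold above the other vehicle libraries, where 2.54% of all tested genes did. What set these values in vehicle replicate 4 was not tested. With GC offsets in the edgeR fit, no member was called, and the log2 fold changes were -0.04 for Id1, 0.11 for Id3 and 0.22 for Smad6 (edgeR adjusted p = 0.925, 0.787 and 0.316).

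**Figure D3:**
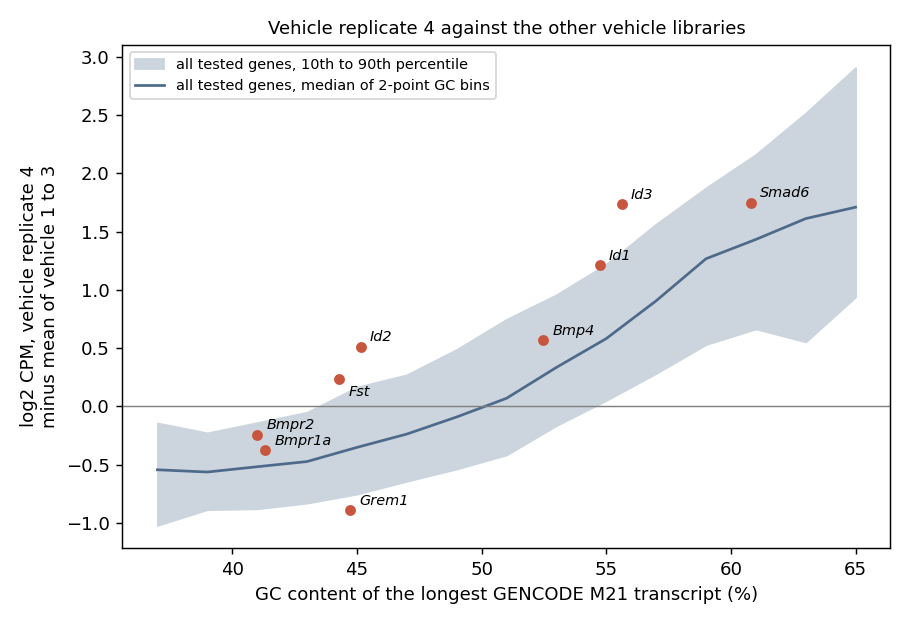
Difference in log2 CPM between vehicle replicate 4 and the mean of vehicle replicates 1 to 3 (y axis) against the GC content of the longest transcript (x axis). The blue line is the median and the grey band the 10th to 90th percentile of all tested genes in 2-point GC bins, and red points are members. Smad6 lies near the line, Id3, Id2 and Fst lie above the band, Id1 is at its upper edge, and Grem1 lies below it.

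Among members, levels per kilobase of exon (GENCODE M21 exon lengths, CPM per kb over all 8 libraries) fell into a high pair, a middle group and a low pair. Bmp4 stood at 62.2 ± 11.2 and Bmpr1a at 58.9 ± 9.44 CPM per kb, and each was above the other in 4 of the 8 libraries. Id1 followed at 32.7 ± 12.5, Fst at 26.2 ± 4.21, Id3 at 24.1 ± 12.7 and Id2 at 18.1 ± 4.45 CPM per kb, with overlapping ranges from each to the next. Grem1 stood at 13.4 ± 3.79 CPM per kb, and its range overlapped that of Id2. Bmpr2 and Smad6 were lowest, at 3.34 ± 0.325 and 2.86 ± 1.64 CPM per kb, and Grem1 was above both in all 8 libraries. The long exons of Bmpr2 (17983 bases in that annotation) place it low on this scale although its mean CPM over 8 libraries exceeded that of Id1.

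The genes with profiles most like that of Id1 over the 8 libraries, by the root mean square difference of log2 CPM centred on each gene's mean, were Dact3 at 0.092, 2310009B15Rik at 0.099, Zfp553 at 0.114, Wwp2 at 0.117 and Rgl3 at 0.118. Wwp2, a ubiquitin ligase, held 202 CPM in vehicle replicate 4 and 69.5 to 132 CPM in the other 7 libraries. Among 10988 genes compared, Smad6 ranked 516, Id3 1835 and Id2 2230 by likeness to Id1, so genes outside the set were nearer to Id1 than the other Id genes were. All of the nearest genes named for Id1 were, like Id1, highest in vehicle replicate 4. The ranking was not made without that library, and shared regulation was not tested. For Bmp4 the nearest genes were Tmem120a at 0.061, Nkain1 at 0.062, Mcat and Ddx23 at 0.070 and Qsox1 at 0.072. They too were highest in vehicle replicate 4, as Bmp4 was.

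The wider BMP pathway was read from 6 lists of 101 genes, of which 60 were tested. Of these, 2 rose, 3 fell and 55 did not pass (8.33% called, beside 8.50% over all tested genes). The secreted antagonists and modulators were the list furthest from 0. Of 9 tested members, 2 fell and 7 did not pass, 8 had a negative log2 fold change (53.9% of all tested genes did), and the median was -0.86. Without vehicle replicate 4 the median of this list was -0.58. DESeq2 called 5 of the 9 lower, limma-voom 3 and edgeR with GC offsets 4. Of all 11844 tested genes DESeq2 called 804 lower, limma-voom 340 and edgeR with GC offsets 809, beside 344 (2.90%) in edgeR without offsets. Nbl1, a secreted BMP antagonist of the DAN family, held 96.5, 71.2, 90.6 and 103 CPM in vehicle and 52.1, 31.8, 33.8 and 22.2 CPM after S1P. Every S1P library was below every vehicle library, and Nbl1 fell 2.58-fold (log2 fold change -1.37, SE 0.24, edgeR adjusted p = 0.00922). Chrdl1, a chordin-like antagonist, held 2.13, 2.82, 3.18 and 1.89 CPM in vehicle and 0.866, 0.945, 0.441 and 0.934 CPM after S1P. Its groups did not overlap either, and Chrdl1 fell 3.12-fold (log2 fold change -1.64, SE 0.32, edgeR adjusted p = 0.0144). Its S1P values were all under 1 CPM, not far above the 0.213 to 0.223 CPM that 0 counts could stand for. Nbl1 and Chrdl1 both kept their calls whichever library was left out (edgeR adjusted p of up to 0.0414 and 0.0469). With GC offsets, chosen after seeing the data, the log2 fold change of Nbl1 was -1.10, close to the threshold (edgeR adjusted p = 0.049). That of Chrdl1 was -1.79 (edgeR adjusted p = 0.0061).

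Of the uncalled genes of this list, 1 is given here, chosen after its values were seen. Chrd, the chordin gene, held 6.36 to 20.4 CPM in vehicle and 4.19 to 6.32 CPM after S1P (log2 fold change -1.09, edgeR adjusted p = 0.0945). The highest value was that of vehicle replicate 4, 2.53-fold above the other vehicle libraries, and without it the log2 fold change of Chrd was -0.62 (edgeR adjusted p = 0.0701). The groups of Chrd did not overlap, and its span shares 1785 bases with the gene Thpo. Beside it, Grem1 and Fst had no call and intervals that include 0, as given above.

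**Figure D4:**
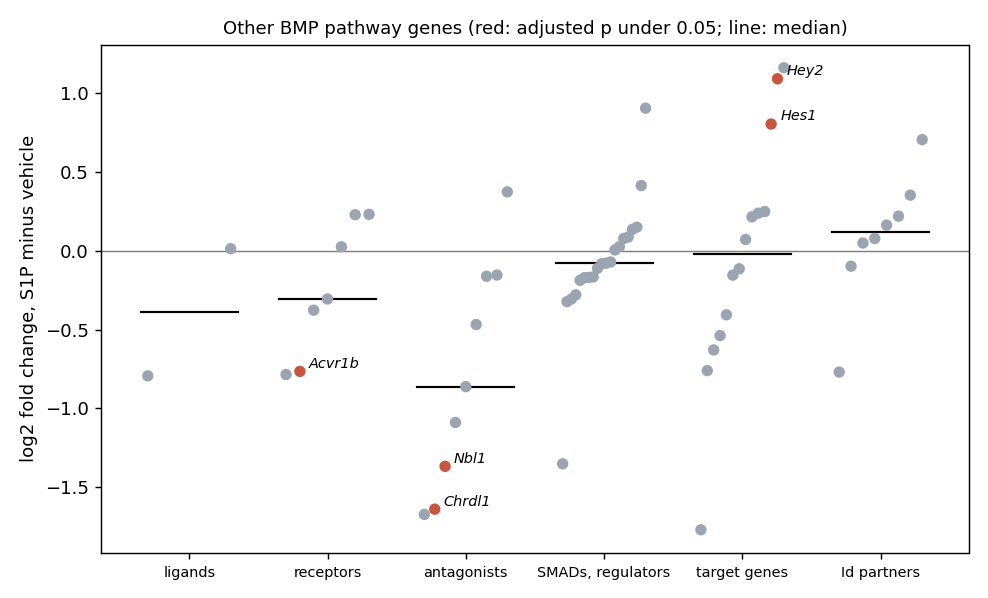
Log2 fold change of S1P minus vehicle (y axis) for the 60 tested genes of the 6 other BMP pathway lists (x axis), with genes past the adjusted threshold in red and named, and the list median as a line. The antagonist list lies lowest, at a median of -0.86, and the SMAD list lies near 0, at -0.08. Without vehicle replicate 4, which is not drawn, the antagonist median was -0.58.

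Of 7 tested receptors and co-receptors, 1 fell and 6 did not pass, with a median log2 fold change of -0.31. Without vehicle replicate 4 that median was -0.01. Acvr1b, a type I receptor of activins rather than of BMPs, held 36.6, 39.5, 57.5 and 49.98 CPM in vehicle and 31.5, 22.0, 29.2 and 25.1 CPM after S1P. It fell 1.70-fold (log2 fold change -0.77, SE 0.18, edgeR adjusted p = 0.0287), with no overlap of the groups, but was not called without vehicle replicate 3 or S1P replicate 6, 7 or 8 (edgeR adjusted p of up to 0.102). Bmpr1b, the other BMP type I receptor of that name, had at most 1 count in any library.

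None of 20 tested SMADs and intracellular regulators passed in edgeR, where 8.50% of all tested genes did, and the median log2 fold change was -0.08. At an unadjusted p under 0.05 in edgeR there were 4 of the 20, where 24.9% of all tested genes passed. DESeq2 called 2 of the 20 and limma-voom 0. Of all 11844 tested genes DESeq2 called 967 higher and 804 lower. Ctdsp2, a phosphatase and the most abundant of the list, held 526 to 667 CPM in vehicle and 515 to 548 CPM after S1P (log2 fold change -0.17, edgeR adjusted p = 0.367). The signal transducers, named here for their role, did not pass. Smad1 held 22.4 to 26.0 CPM in vehicle and 26.4 to 27.9 CPM after S1P, groups that did not overlap but lay close together (log2 fold change 0.14, SE 0.11, edgeR adjusted p = 0.45). Smad5 had a log2 fold change of 0.01 (SE 0.13), Smad9 of -0.07 (SE 0.20) and Smad4 of 0.03 (SE 0.10; edgeR adjusted p = 0.982, 0.85 and 0.89). Of the ligand list only Bmp1 and Gdf11 were tested, and neither passed in edgeR. At an unadjusted p under 0.05 in edgeR there was 1, where 24.9% of all tested genes passed. DESeq2 called 1 and limma-voom 0. Bmp1, which despite its name is a procollagen protease, held 124, 134, 142 and 296 CPM in vehicle and 84.8, 110.2, 106 and 100.8 CPM after S1P. Its groups did not overlap (log2 fold change -0.79, SE 0.27, edgeR adjusted p = 0.104), and without vehicle replicate 4 it passed at a smaller size (log2 fold change -0.41, edgeR adjusted p = 0.0314).

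Of 14 tested target genes, 2 rose and 12 did not pass, with a median log2 fold change of -0.02. Without vehicle replicate 4 the median of the target genes was 0.21. Both risers are transcriptional repressors better known as Notch targets. Hes1 held 14.1, 15.1, 20.9 and 17.4 CPM in vehicle and 34.1, 25.6, 32.2 and 26.2 CPM after S1P, a rise of 1.75-fold (log2 fold change 0.81, SE 0.17, edgeR adjusted p = 0.0176). Hey2 held 5.33, 8.61, 6.07 and 8.06 CPM in vehicle and 9.46, 17.8, 16.6 and 16.0 CPM after S1P, a rise of 2.13-fold (log2 fold change 1.09, SE 0.25, edgeR adjusted p = 0.0255). The groups did not overlap for either gene. Hes1 was not called without vehicle replicate 2 or S1P replicate 7 (edgeR adjusted p of up to 0.0624), and the call of Hey2 ended in 5 of the 8 fits that leave out 1 library, those lacking vehicle replicate 1, vehicle replicate 3, or 1 of S1P replicates 6 to 8 (edgeR adjusted p of up to 0.0931).

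**Figure D5:**
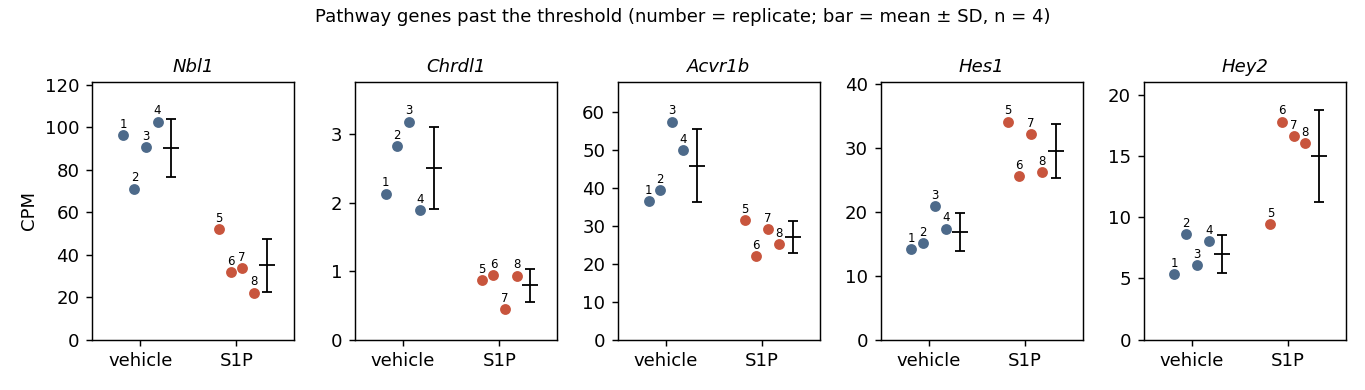
CPM (y axis, from 0) of the 5 pathway genes past the threshold in each library, with vehicle in blue and S1P in red, the replicate number above each point and the group mean ± SD (n = 4) as a bar. Nbl1, Chrdl1 and Acvr1b are lower and Hes1 and Hey2 higher in all 4 S1P libraries than in any vehicle library.

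Other target genes shared the excess of Id1, Id3 and Smad6 in vehicle replicate 4. In 6 of the 14 that library lay more than 2-fold above the other vehicle libraries on the log2 scale, where 12.9% of all tested genes did. The median GC content of the 14 was 55.0%, beside 49.3% over all tested genes. After the GC curve was subtracted, 4 of the 6 (Atoh8, Msx1, Dlx2 and Gata2) were at -0.04 to -0.11 on the log2 scale, from 1.01 to 1.64 before. The other 2 remained over 2-fold above, Dlx5 at 1.01 (from 1.58) and the AP-1 gene Junb at 1.89 (from 3.63). These 6 were named after their values were seen. Junb held 84.2 CPM in vehicle replicate 4 and 5.03 to 12.7 CPM in the remaining 7 libraries. None of 8 tested helix-loop-helix partners of Id proteins passed in edgeR, and DESeq2 and limma-voom called 0. At an unadjusted p under 0.05 in edgeR there were 2 of the 8, where 24.9% of all tested genes passed. Tcf4, the most abundant of these E proteins, held 288, 295, 291 and 237 CPM in vehicle and 219.9, 255, 272 and 292 CPM after S1P (log2 fold change -0.10, SE 0.12, edgeR adjusted p = 0.648). In bulk RNA a lower level per cell and fewer expressing cells cannot be told apart, which applies to each value above.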

How the data were processed

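RNA sequencing was deposited for 4 vehicle and 4 S1P libraries. The authors deposited whole-number counts per Ensembl gene with mm9 coordinates and symbols. STAR 2.5.3a and the mm9 build are named, per the submitters' processing notes. For the counting tool and annotation the sources used here give nothing. The deposited counts are labelled as sense, and nothing more is given on the strand setting. Columns were matched to samples by title. Genes were kept with filterByExpr (minimum count of 10) of edgeR 4.0.16 in R 4.3.3, scaled by TMM and tested with the robust quasi-likelihood test over all 8 libraries, treatment being the only term. Benjamini-Hochberg adjustment ran over all tested genes. The SE comes from the F statistic. The fit was tested on simulated data. The simulated libraries of a group shared the same means and had no GC-linked deviation. The simulation therefore cannot show how the fit behaves with a library like vehicle replicate 4. GC content and exon length were taken from GENCODE M21 (17497 of 18306 identifiers matched). Log2 CPM used a prior count of 2, and the GC curve was a lowess fit with a span of 0.3. Alternatives were other composition factors, other filters, DESeq2 1.42.0, limma-voom (limma 3.58.1), 1 surrogate variable (sva 3.50.0), libraries left out and, added after seeing the data, GC offsets. No member had a near-identical copy with more than a mean count of 0.375 in the table. Members and lists were chosen with earlier results of these data known. Named genes are all members, in each pathway list the genes past the threshold or else the most abundant one, and the 5 nearest profiles to Id1 and Bmp4 at a mean of at least 2 CPM. Symbols absent from the table were not analysed here. 1 result of the pathway lists is not reported here.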

Additional observations from a re-analysis of the deposited data

Results flagged for a closer look

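Several values came from a library that lay far from the other 3 of its group, judged by its gap to the nearest library divided by the range of the group and set against Dixon's 95% critical value, which chance passes in about 5% of groups. In vehicle replicate 4 this held on the high side for Id1 (0.929), Id3 (0.933), Smad6 (0.935) and the protease gene Bmp1 (0.893), and on the low side for Tcf4 (0.881). Over all tested genes, that library passed on the high side for 10.3% and on the low side for 2.90%. Fst was low in vehicle replicate 1 (0.863), and Chrdl1 was low in S1P replicate 7 (0.844).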

How the results depend on the processing

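Across 18 alternatives the 9 members gave 162 fits, of which 2 passed the threshold, both for Id3, without vehicle replicate 4 (0.47) and without that library and S1P replicate 5 (0.36). Values are log2 fold changes or counts of genes. Leaving out 1 library at a time gave -0.0291 to 0.23 for Bmp4, -0.0045 to 0.18 for Bmpr1a, -0.0215 to 0.22 for Fst, -0.49 to -0.07 for Grem1, 0.08 to 0.40 for Id2, -0.19 to -0.10 for Bmpr2, -0.41 to 0.16 for Id1, -0.39 to 0.47 for Id3 and -0.56 to 0.31 for Smad6. The signs of Bmpr1a, Id1, Id3 and Smad6 turned without vehicle replicate 4, those of Bmp4, Bmpr1a and Fst without vehicle replicate 1, and that of Bmp4 also without vehicle replicate 3 or S1P replicate 6. Without vehicle replicate 4 the sign turned for 17.4% of all tested genes. With a surrogate variable Id1, Id3 and Smad6 were at 0.0286, 0.28 and 0.13, and without vehicle replicate 4 and S1P replicate 5 at 0.24, 0.36 and 0.275. With limma-voom Id3 was at 0.0283. GC offsets, chosen after seeing the data, gave -0.0833 for Bmpr1a, -0.0291 for Fst, 0.11 for Id3, 0.22 for Smad6, 0.11 for Id2 and -0.31 for Bmpr2 (edgeR adjusted p = 0.056). The cause was not tested.

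Leaving out 1 library gave 333 to 1133 genes higher and 101 to 723 lower (663 and 344 in all libraries), 0 to 1 members higher, and 0 to 3 pathway genes higher and 2 to 6 lower (2 and 3). The counts of all genes rose by over 1.5 times without vehicle replicate 4 and dropped by over 1.5 times without S1P replicate 6 (333 and 101), 7 (408 and 151) or 8 (360 and 108). No pathway gene was called higher without S1P replicate 7, and 1 was in each fit lacking S1P replicate 6, S1P replicate 8, vehicle replicate 1 or vehicle replicate 2. Both libraries left out gave 1178 higher and 934 lower, 1 member higher, and 5 pathway genes higher and 6 lower. A surrogate variable gave 1473 and 1014 genes and 5 and 10 pathway genes, DESeq2 804 genes lower and 9 pathway genes lower, and GC offsets 1026 and 809 genes and 8 pathway genes lower. No paired analysis was possible because the groups share no replicate numbers.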
